A study of Mus musculus with 18 samples.

Results

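The breakdown of the branched-chain amino acids leucine, isoleucine and valine was followed through 10 of its enzymes in mouse kidneys after ischemia and reperfusion (I/R) injury. The genes were taken as a fixed list of named enzymes (Bcat2, Bckdha, Bckdhb, Dbt, Ivd, Mccc1, Mccc2, Acadsb, Hibch and Hibadh), and all 10 were found among the 45706 genes of the count files. Whole kidneys had been sequenced from mice on a C57BL/6J background in 4 groups, with 5 kidneys each for Myc control, Myc KO and Cxcl12 KO and 3 for Cxcl12 control. Every mouse carried a floxed Cxcl12 or a floxed Myc gene (F/F) together with the Pax8rtTA transgene, and only KO mice carried TetOCre as well, so that doxycycline induced the recombinase in Pax8-expressing tubule cells. Controls lacking TetOCre received doxycycline too, with a washout before surgery, and all mice were adult males. All kidneys, control kidneys included, were removed after bilateral ischemia of 22.5 min and 12 h of reperfusion, so no uninjured kidney enters any value. Excision was limited to tubule cells while RNA came from the whole organ, and a lower level in such bulk samples cannot separate fewer cells of a type from less RNA per cell. The labels number the kidneys as replicates without saying more of their origin, so p-values measure the spread between these kidneys.

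In mammals the branched-chain amino acids are first transaminated and then oxidatively decarboxylated by the mitochondrial branched-chain alpha-keto acid dehydrogenase (BCKDH) complex, the committed step of the pathway. After that step leucine, isoleucine and valine follow separate branches of acyl-CoA dehydrogenases, carboxylases and hydrolases that feed acetyl-CoA, acetoacetate and propionyl-CoA into central metabolism. BCKDH is switched off by a kinase and switched on by a phosphatase, and the mitochondria-rich proximal tubule is one of the sites where these amino acids are taken back from the filtrate.

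Levels are given as CPM, the count of a gene relative to all reads assigned to genes in that kidney and scaled to a common total, after scaling of all 18 kidneys together by trimmed mean of M-values (TMM), and log2 fold changes (KO minus control) come from edgeR's quasi-likelihood test fitted within each cohort on all genes that passed a low-count filter. The reads assigned to genes numbered 12918220 to 29749500 per kidney. In 6 kidneys (Cxcl12 KO 1 and 2, Myc KO 3 and 5, Myc control 1 and 3) under 5% of the reads were unmapped (3.69 to 4.63%), against 5.28 to 6.48% in the other 12, and these 6 were also the most deeply sequenced. The targeted genes followed the labels. Cxcl12 was at 55.1, 60.5 and 44.9 CPM in Cxcl12 control kidneys and at 28.7, 36.3, 29.2, 26.3 and 40.9 CPM in Cxcl12 KO kidneys, with no overlap and a log2 fold change of -0.73 (SE 0.15, 95% interval -1.06 to -0.41, adjusted p = 0.094). Myc was at 79.7 to 117 CPM in Myc control and 26.6 to 37.0 CPM in Myc KO kidneys, a log2 fold change of -1.61 (SE 0.12, 95% interval -1.87 to -1.36, adjusted p = 8.8e-05). All 10 proximal tubule markers and all 6 markers of thick limb, distal tubule and collecting duct had counts in every kidney.

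None of the 10 enzymes passed the test in either cohort. In the Cxcl12 cohort 9 of 10 had a fold change below 0, all but Hibadh, with a median log2 fold change of -0.16 and a range of -0.24 to 0.01, while 49.8% of the 15154 genes tested lay below 0 with a median of 0.0008. In edgeR 0 of 10 had an adjusted p under 0.05, where 0% of all genes tested did, and 1 of 10 (Bckdhb) had an unadjusted p under 0.05, against 13.0% of all genes. In the Myc cohort 6 of 10 lay below 0, and Bcat2, Ivd, Mccc2 and Acadsb above it. Their median was -0.073 within a range of -0.20 to 0.11, beside a median of -0.0008 over the 14936 genes tested, of which 50.1% lay below 0. Here too 0 of 10 passed, where 1.65% of all genes did, and 1 of 10 (Hibch) had an unadjusted p under 0.05, against 21.9% of all genes. DESeq2 called 0 of the 10 in both cohorts as well, where it called 2.33% (Cxcl12) and 7.57% (Myc) of all genes, and limma voom called 0 of the 10, where it called 0% and 1.44%.

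The size of the difference in the Cxcl12 cohort rested largely on 1 control kidney. Cxcl12 control 3 held the highest level of the 3 controls for 7 of the 10 enzymes and the highest of all 18 kidneys for 5 of them (Bckdha, Dbt, Ivd, Mccc1 and Mccc2). Without it, 6 of 10 enzymes lay below 0 and the median was -0.055 in place of -0.16. The same kidney had the highest summed level of the 10 proximal tubule markers of all 18 kidneys (7191 CPM). Among kidneys with 5% or more unmapped reads (3 KO, 3 control), 8 of 10 enzymes had a lower mean log2 CPM in Cxcl12 KO, with a median difference of -0.19, and no Cxcl12 control kidney lay under 5%. In the Myc cohort 6 of 10 were lower among those kidneys (3 KO, 3 control; median difference -0.023), and 8 of 10 among the kidneys under 5% (2 KO, 2 control; median difference -0.16). Leaving out single Myc kidneys gave 5 to 7 of 10 enzymes below 0, with the median at -0.025 without control 4, at -0.027 without KO 5 and down to -0.093 otherwise.

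**Figure D1:**
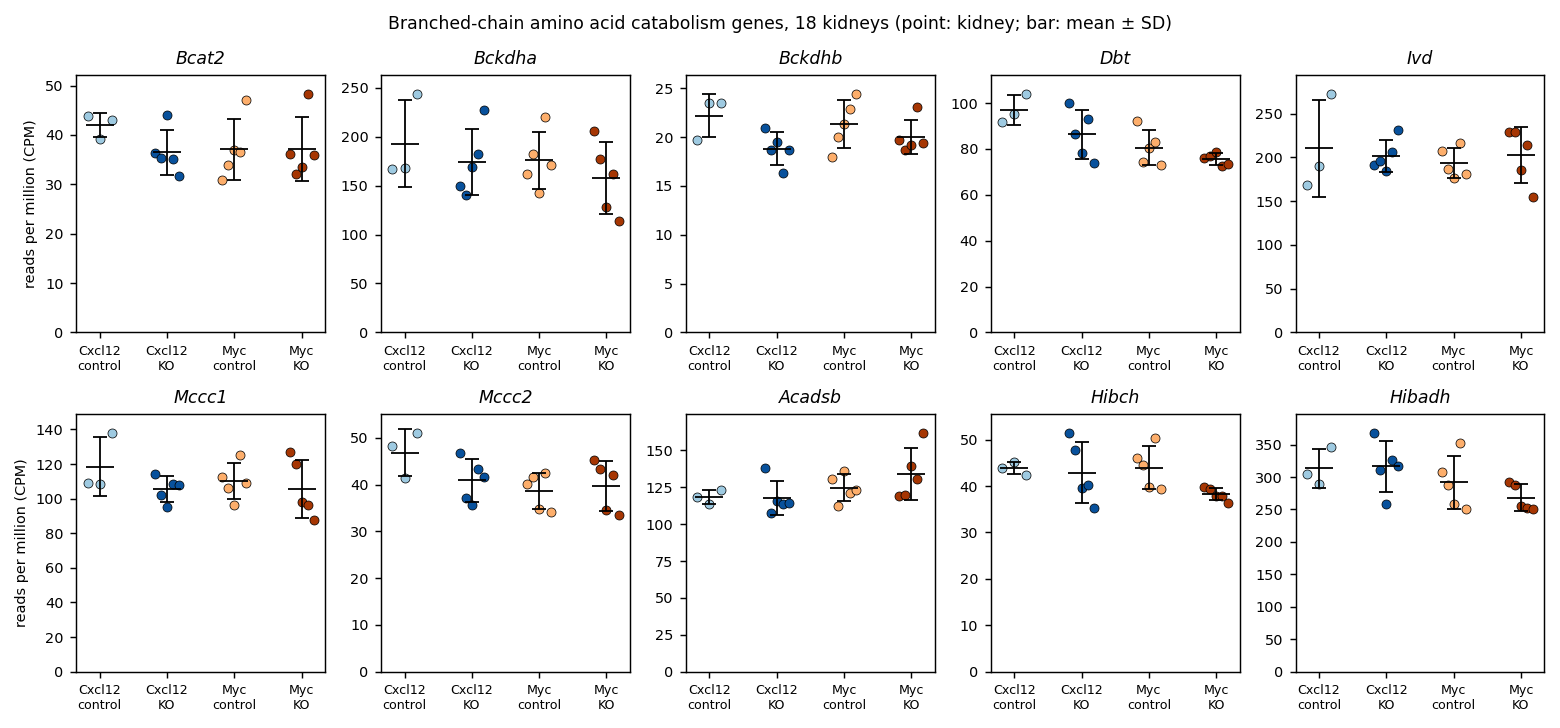
Level of each of the 10 enzymes in CPM (vertical axis, from 0) in the 18 kidneys by group (horizontal axis); points are kidneys and bars the mean ± SD. KO and control kidneys overlapped in both cohorts for all 10 genes, and Bckdha and Ivd had the widest spread among Cxcl12 control kidneys with 1 kidney at 244 and 273 CPM.

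No enzyme separated the groups. For 0 of 10 was every KO kidney below every control kidney, where 4.72% of the genes tested were so in the Cxcl12 cohort and 3.92% in the Myc cohort. Likewise 0 of 10 had every KO kidney above every control kidney, where 4.96% and 2.05% of all genes did. With 5 against 3 kidneys the smallest two-sided p an exact permutation test can give is 0.0179, and with 5 against 5 it is 0.00794.

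RefSeq promoter sequences (GRCm38.p6) were matched by symbol for 9 of the 10 enzymes, Dbt being the exception, with 11 start sites. The 250 bases before each start were searched on both strands for CACGTG, the E-box that Myc with its partner Max can bind, and for TCAAGGTCA, a site of the estrogen-related receptors, which act on genes of mitochondrial metabolism. The E-box was found in 1 of 11 windows, that of Mccc2, against 6.02% of the 32851 windows of all genes, and the receptor site in 0 of 11, against 0.387%. The windows of the 11 starts held 36.4 to 68.0% G and C, with a median of 52.4% over all windows. The sequences given are the window of Mccc2 (chr13:100015640-100015889, minus strand, outside annotated exons), shown for its E-box in capitals 9 to 4 bases before the start, and that of the upstream start of Bckdhb (chr9:83924887-83925136, plus strand, overlapping exons of Gm36278 by 136 bases), the enzyme with the lowest fold change in the Cxcl12 cohort. A match of letters is a description of the window.
Mccc2: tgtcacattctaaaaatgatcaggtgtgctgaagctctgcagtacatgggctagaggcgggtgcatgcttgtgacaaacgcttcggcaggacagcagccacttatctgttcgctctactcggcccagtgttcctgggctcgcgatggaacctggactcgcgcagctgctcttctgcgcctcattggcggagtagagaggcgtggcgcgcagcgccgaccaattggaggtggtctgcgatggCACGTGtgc
Bckdhb: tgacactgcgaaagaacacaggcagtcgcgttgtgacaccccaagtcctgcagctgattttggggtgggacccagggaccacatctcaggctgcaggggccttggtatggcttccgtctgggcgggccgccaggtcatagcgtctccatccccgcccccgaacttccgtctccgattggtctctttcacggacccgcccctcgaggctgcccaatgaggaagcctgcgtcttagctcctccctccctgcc
Mccc2, the enzyme with the E-box, had a log2 fold change of 0.040 in the Myc cohort, where the 10 enzymes ran from -0.20 to 0.11.

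Bcat2 (chr7:45570153-45589711, plus strand; GRCm38, GENCODE vM21 here and for the positions that follow) encodes the mitochondrial aminotransferase that removes the amino group of all 3 amino acids. It measured 43.8, 39.2 and 43.1 CPM in Cxcl12 control kidneys and 36.3, 35.3, 44.1, 35.1 and 31.8 CPM in Cxcl12 KO kidneys 1 to 5. KO 3 lay above every control and the other 4 KO kidneys below every control, for a log2 fold change of -0.21 (SE 0.11, 95% interval -0.45 to 0.029, adjusted p = 0.442). Among Myc kidneys the controls gave 30.8, 33.8, 36.9, 36.6 and 47.1 CPM and the KO kidneys 36.2, 32.1, 33.5, 48.4 and 36.0 CPM. Each Myc group held 1 kidney near the top, control 5 and KO 4, and the remaining kidneys of both groups shared one range. The log2 fold change there was 0.0086 (SE 0.13, 95% interval -0.28 to 0.29, adjusted p = 0.977). Exons of Bcat2 share 622 bases with those of the antisense gene 0610005C13Rik, and the reads counted on either strand sum to 131.0% of the count without strand. With the counts of 1 strand (column 3) the Cxcl12 log2 fold change of Bcat2 was -0.34.

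BCKDH was represented by the subunits of its E1 component and by its E2 core. Bckdha (chr7:25629946-25658981, minus strand) encodes E1 alpha, the part that the regulatory kinase phosphorylates. Its level was 167, 168 and 244 CPM in Cxcl12 control and 150.1, 141, 169, 183 and 227 CPM in Cxcl12 KO kidneys. KO 1 and 2 were the lowest, while KO 3, 4 and 5 exceeded the 2 lower controls. This made a log2 fold change of -0.16 (SE 0.17, 95% interval -0.53 to 0.22, adjusted p = 0.728), or 0.045 without control 3. With a term for the kidneys under 5% unmapped reads it was -0.0076, without those kidneys -0.014, and with the replicate number as a block -0.31. Myc control kidneys had 162, 183, 142, 220.4 and 171 CPM and Myc KO kidneys 206, 178, 128, 162 and 114 CPM. The lowest values of the KO group came from kidneys 3 and 5, both with under 5% unmapped reads, and the lowest control (kidney 3) was of that kind too. KO and control differed by a log2 fold change of -0.16 (SE 0.16, 95% interval -0.50 to 0.19, adjusted p = 0.589). Over the 18 kidneys Bckdha varied most of the 10, 2.13-fold between the lowest and the highest kidney.

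Bckdhb (chr9:83925145-84124240, plus strand) encodes E1 beta, which forms the E1 tetramer with E1 alpha. It was measured at 19.7, 23.5 and 23.4 CPM in Cxcl12 control kidneys and at 20.9, 18.7, 19.5, 16.3 and 18.7 CPM in Cxcl12 KO kidneys. All 5 KO kidneys lay below the control mean, and only KO 1 lay above the lowest control. This gave the lowest fold change of the 10 in this cohort, -0.24 (SE 0.11, 95% interval -0.48 to -0.0016, adjusted p = 0.381), with an unadjusted p of 0.049 and an exact two-sided permutation p of 0.054. For Myc, Bckdhb was at 18, 20.1, 21.3, 22.9 and 24.4 CPM in control and 19.7, 18.7, 19.2, 23.0 and 19.4 CPM in KO kidneys. Of the KO kidneys 4 lay within 18.7 to 19.7 CPM and KO 4 stood above them, and the log2 fold change was -0.090 (SE 0.099, 95% interval -0.31 to 0.12, adjusted p = 0.623).

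Dbt (chr3:116513070-116549981, plus strand) encodes E2, the lipoyl-bearing transacylase around which the complex assembles. Cxcl12 control kidneys held 91.6, 95.3 and 104 CPM and Cxcl12 KO kidneys 99.9, 86.5, 78.3, 93.1 and 73.9 CPM. KO 1 and 4 reached the control range and KO 2, 3 and 5 lay under it, with a log2 fold change of -0.17 (SE 0.11, 95% interval -0.41 to 0.064, adjusted p = 0.523). Myc control kidneys held 92.2, 74.4, 80.3, 83.0 and 73.2 CPM and Myc KO kidneys 76.0, 77.1, 78.8, 72.6 and 73.4 CPM. All 5 Myc KO kidneys were below the control mean in a narrow range (coefficient of variation 3.39%, against 9.46% in the controls), and the log2 fold change was -0.091 (SE 0.073, 95% interval -0.25 to 0.068, adjusted p = 0.487). E3, encoded by Dld, is shared with other dehydrogenase complexes and stood at 335 ± 25.2 (SD, n = 3), 326 ± 40.4 (SD, n = 5), 314 ± 13.2 (SD, n = 5) and 296 ± 18.7 (SD, n = 5) CPM in the control and KO kidneys of the Cxcl12 cohort and then of the Myc cohort. Its log2 fold changes were -0.041 (SE 0.11, 95% interval -0.29 to 0.21, adjusted p = 0.908) and -0.086 (SE 0.072, 95% interval -0.24 to 0.071, adjusted p = 0.507) in the Cxcl12 and Myc cohorts.

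The regulators of BCKDH were compared as part of the fixed list of other pathway genes. Bckdk, the inactivating kinase, was at 50.1, 42.5 and 51.1 CPM in Cxcl12 control and 40.8, 36.2, 44.2, 43.2 and 34.9 CPM in Cxcl12 KO kidneys. All 5 KO kidneys lay below the control mean, although KO 3 and 4 exceeded control 2, and the log2 fold change was -0.27 (SE 0.11, 95% interval -0.50 to -0.038, adjusted p = 0.323). Myc control kidneys had 40.7, 45.8, 40.1, 54.4 and 44.9 CPM and Myc KO kidneys 40.9, 42.0, 36.5, 38.2 and 40.2 CPM, for a log2 fold change of -0.19 (SE 0.090, 95% interval -0.38 to 0.0065, adjusted p = 0.242). All 5 Myc KO kidneys were again below the control mean, with KO 1, 2 and 5 above the lowest control and KO 3 and 4 below every control. Ppm1k, the activating phosphatase, was at 14.3 ± 0.429 (SD, n = 3), 14.2 ± 2.62 (SD, n = 5), 13.5 ± 2.15 (SD, n = 5) and 13.7 ± 2.25 (SD, n = 5) CPM in the control and KO kidneys of the Cxcl12 cohort and then of the Myc cohort, with log2 fold changes of -0.0097 (adjusted p = 0.986) and 0.030 (adjusted p = 0.921). Per kilobase, Bckdk exceeded Ppm1k in every kidney, by a mean ratio of 5.47 ± 0.505 in Cxcl12 control, 4.71 ± 1.01 in Cxcl12 KO, 5.55 ± 0.904 in Myc control and 4.84 ± 0.966 in Myc KO kidneys (SD).

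**Figure D2:**
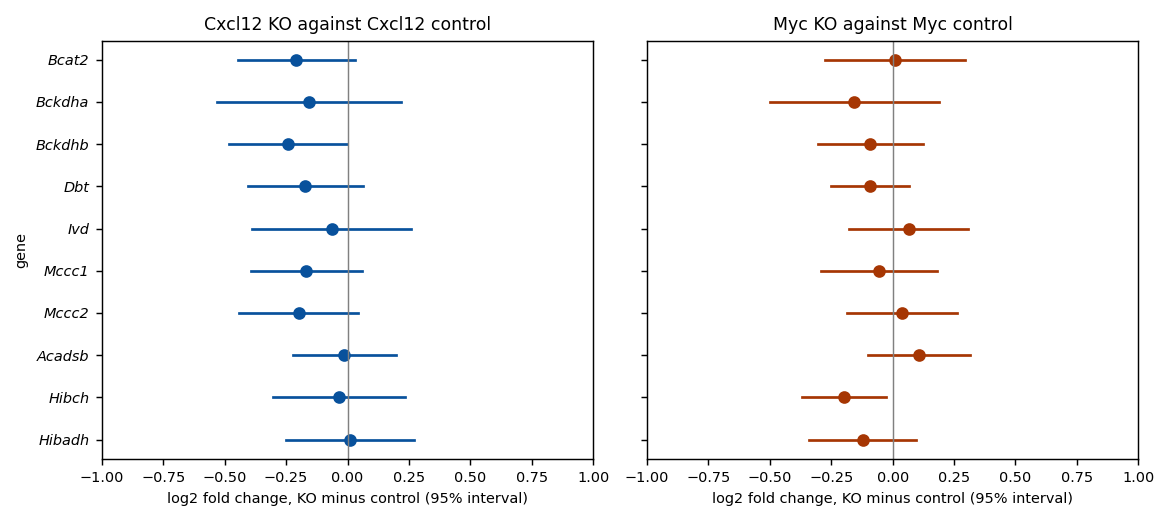
Log2 fold change of each enzyme (horizontal axis, KO minus control; vertical axis, gene) in the Cxcl12 cohort (left) and the Myc cohort (right), with its 95% interval from edgeR. Points ran from -0.24 to 0.01 in the Cxcl12 cohort and from -0.20 to 0.11 in the Myc cohort, and no bound lay under -0.53 or above 0.31.

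The leucine branch begins with Ivd (chr2:118861954-118882909, plus strand), the isovaleryl-CoA dehydrogenase. Its level was 168, 189.8 and 273 CPM in Cxcl12 control and 192, 196, 184, 206 and 231 CPM in Cxcl12 KO kidneys. The control kidneys spanned a wider range than the KO kidneys and enclosed them (coefficients of variation 26.3% and 9.02%), with a log2 fold change of -0.064 (SE 0.15, 95% interval -0.39 to 0.26, adjusted p = 0.885). Without control 3 the value was 0.16. Within the Myc cohort Ivd was at 207, 187, 176, 217 and 182 CPM in control and 229.6, 229, 185, 214 and 155 CPM in KO kidneys. Myc KO 1 and 2 were above all controls and KO 5 below all of them, with a log2 fold change of 0.065 (SE 0.11, 95% interval -0.18 to 0.31, adjusted p = 0.767).

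Mccc1 (chr3:35959312-36000678, minus strand) and Mccc2 (chr13:99948530-100015639, minus strand) encode the biotin-carrying alpha and the beta subunit of methylcrotonoyl-CoA carboxylase, which acts next on the leucine carbon. Mccc1 was at 109, 108 and 138 CPM in Cxcl12 control and 114, 102, 95.1, 109 and 108 CPM in Cxcl12 KO kidneys. Control 3 stood alone, and the other 2 controls lay inside the KO range, for a log2 fold change of -0.17 (SE 0.10, 95% interval -0.39 to 0.057, adjusted p = 0.512), or -0.047 without control 3. Myc control kidneys had 113, 106, 96.5, 125 and 109 CPM and Myc KO kidneys 127, 120.3, 98.2, 96.4 and 87.6 CPM, KO 1 being the highest and KO 5 the lowest of both groups, with a log2 fold change of -0.055 (SE 0.11, 95% interval -0.29 to 0.18, adjusted p = 0.800). Exons of Mccc1 overlap those of antisense genes and of the processed pseudogene B230207O21Rik, and counts by strand summed to 112.5% of the count without strand. Mccc2 was at 48.2, 41.3 and 51.1 CPM in Cxcl12 control and 46.7, 37.2, 35.6, 43.4 and 41.7 CPM in Cxcl12 KO kidneys. All 5 KO kidneys lay under the control mean, 3 of them above control 2, and the log2 fold change was -0.20 (SE 0.11, 95% interval -0.44 to 0.043, adjusted p = 0.465). In Myc control and Myc KO kidneys Mccc2 ranged over 34.2 to 42.4 and 33.5 to 45.2 CPM, with a log2 fold change of 0.040 (SE 0.10, 95% interval -0.18 to 0.26, adjusted p = 0.853).

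Acadsb (chr7:131410601-131448944, plus strand) encodes the short/branched-chain acyl-CoA dehydrogenase of the isoleucine branch. Cxcl12 control kidneys measured 118, 114 and 123 CPM and Cxcl12 KO kidneys 138, 107, 116, 113 and 114 CPM. KO 1 was above all controls while the means of the groups nearly coincided, 118 ± 4.72 (SD, n = 3) and 118 ± 11.7 (SD, n = 5) CPM. The log2 fold change was -0.013 (SE 0.095, 95% interval -0.22 to 0.20, adjusted p = 0.968), the interval with the smallest width of the 10 in this cohort. Myc control kidneys measured 131, 113, 136, 121 and 123 CPM and Myc KO kidneys 119, 119.6, 139, 130.3 and 162 CPM. Here KO 3 and KO 5 exceeded every control and the fold change was the highest of the 10 in this cohort, 0.11 (SE 0.095, 95% interval -0.099 to 0.31, adjusted p = 0.530). In both Myc groups the kidneys under 5% unmapped reads were higher in Acadsb, by 0.16 (control) and 0.29 (KO) in mean log2 CPM, and the part of that difference in the result was not tested.

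In the valine branch Hibch (chr1:52844929-52920986, plus strand) encodes the 3-hydroxyisobutyryl-CoA hydrolase that frees the acid from CoA. It was at 44.0, 45.2 and 42.4 CPM in Cxcl12 control and 51.4, 47.7, 39.7, 40.2 and 35.2 CPM in Cxcl12 KO kidneys. KO kidneys lay on both sides of the narrow control range, for a log2 fold change of -0.035 (SE 0.12, 95% interval -0.30 to 0.23, adjusted p = 0.929). The 2 KO kidneys above that range, KO 1 and 2, were those under 5% unmapped reads. Without them the value was -0.21, with a term for them -0.20, and among the kidneys with 5% or more the difference of mean log2 CPM was -0.20. Myc control kidneys had 46.1, 44.4, 39.7, 50.3 and 39.3 CPM and Myc KO kidneys 39.7, 39.3, 38.0, 37.9 and 36.3 CPM. All 5 KO kidneys lay below the control mean, and the groups overlapped only in that KO 1 was above control 5. The log2 fold change was -0.20 (SE 0.079, 95% interval -0.37 to -0.029, adjusted p = 0.174), with an unadjusted p of 0.026 and an exact two-sided permutation p of 0.016. Within the mapping groups the difference of mean log2 CPM was -0.19 (5% or more unmapped) and -0.21 (under 5%).

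Hibadh (chr6:52546228-52640389, minus strand) encodes the dehydrogenase that oxidises 3-hydroxyisobutyrate in the next step. Its level was 304, 289 and 347 CPM in Cxcl12 control and 368, 312, 259, 326 and 317 CPM in Cxcl12 KO kidneys. KO 1 was the highest and KO 3 the lowest of the cohort. The log2 fold change, 0.0098 (SE 0.12, 95% interval -0.25 to 0.27, adjusted p = 0.981), was the only one above 0 in this cohort and changed sign in 10 of 19 alternative settings. Myc control kidneys had 308, 288, 259, 352 and 251 CPM and Myc KO kidneys 293, 288, 256, 252.4 and 250.0 CPM. Control 4 was the highest of the cohort and KO 5 the lowest, and the log2 fold change was -0.12 (SE 0.10, 95% interval -0.34 to 0.097, adjusted p = 0.502).

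Whether loss of Cxcl12 and loss of Myc differed in their effect was tested as the difference of the fold changes (Myc minus Cxcl12). Of the 10 enzymes 0 passed, where 0.0692% of the 15903 genes tested did, and 0 had an unadjusted p under 0.05, against 11.4% of all genes. The highest difference was that of Mccc2, 0.23 (95% interval -0.095 to 0.56, adjusted p = 0.635), and the lowest that of Hibch, -0.17 (95% interval -0.47 to 0.13, adjusted p = 0.713). The intervals reached up to 0.60 (Bcat2) and down to -0.54 (Bckdha) on the log2 scale, so the test does not show that the effects were alike.

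Levels between genes were compared per kilobase of the principal transcript (CPM per kilobase). Hibadh was highest in all 4 groups, from 147 ± 11.4 in Myc KO to 173 ± 21.4 in Cxcl12 KO kidneys, and its range did not overlap that of the next gene, Bckdha, in any group. Bckdha stood at 102 ± 23.3, 91.6 ± 17.8, 92.5 ± 15.3 and 83.0 ± 19.5 in the control and KO kidneys of the Cxcl12 cohort and then of the Myc cohort and overlapped Ivd, which came next, only in Myc KO. Mccc1 and then Dbt came after Ivd in every group. Hibch, Bcat2, Acadsb and Mccc2 followed with group means between 18.2 and 24.0, and neighbours among them overlapped in every group. Bckdhb was lowest throughout, from 12.8 ± 1.13 in Cxcl12 KO to 15.1 ± 1.47 in Cxcl12 control kidneys. Within the complex, E1 alpha RNA exceeded E1 beta RNA per kilobase by a mean ratio of 6.73 ± 1.27, 7.25 ± 1.72, 6.42 ± 1.03 and 6.13 ± 1.52 (SD) in the 4 groups in that order, and E2 exceeded E1 beta by 1.96 ± 0.134, 2.06 ± 0.315, 1.71 ± 0.347 and 1.70 ± 0.175. Mean ratios of KO and control differed by less than the SD of either group. Exons of Bckdha overlap those of B3gnt8, and the part of that overlap in its level and in the E1 alpha ratio was not tested. The order depends on the transcript length assumed: with the union of all annotated exons, Bckdha came first in every group, at 83.0 to 102 CPM per kilobase, Hibadh was at 26.3 to 31.1 and Mccc1 at 9.64 to 10.8. By that length Hibch was lowest in every group, at 6.31 to 7.26, and Bckdhb was at 10.4 to 12.3.

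**Figure D3:**
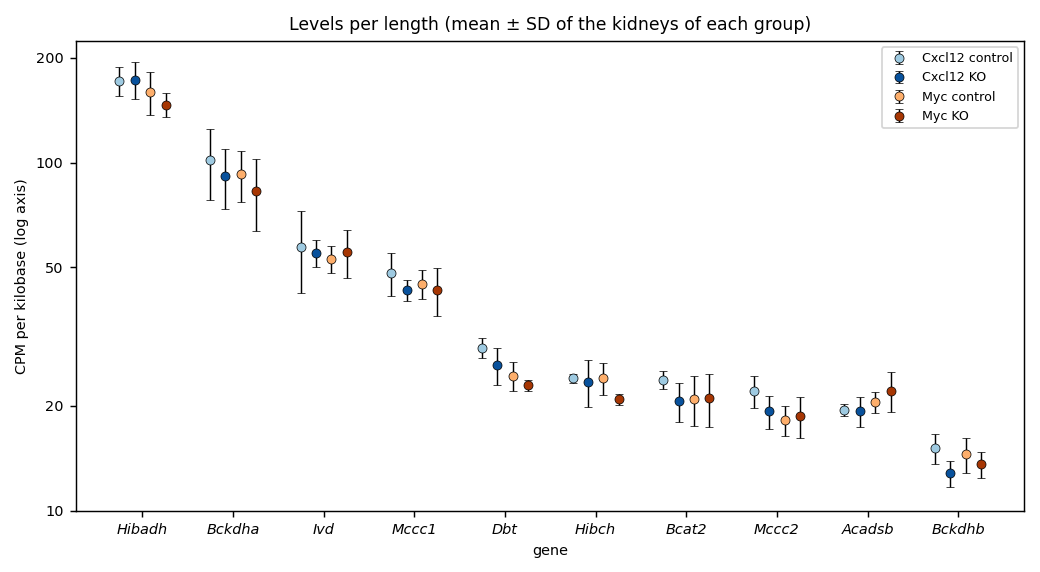
Mean level per kilobase of the principal transcript (vertical axis, log scale) of each enzyme (horizontal axis) in the 4 groups, with SD bars. Hibadh was highest and Bckdhb lowest in all 4 groups.

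Between kidneys some of the enzymes varied together. After centring on group means, 27 of the 45 pairs of enzymes had a Pearson correlation above 0 over the 18 kidneys, with a median of 0.108. The highest was that of Bckdha with Ivd (0.851) and the lowest that of Bckdha with Acadsb (-0.55). Against the mean of the other 9 enzymes, centred on cohort means, Mccc1 reached 0.852 and Mccc2 0.743, while Bcat2 (-0.02) and Acadsb (-0.318) lay below 0. These are descriptions: all enzymes of a kidney share its scaling and depth, and depth differed between kidneys. Myc KO 5 was the lowest of all 18 kidneys for 5 enzymes (Bckdha, Ivd, Mccc1, Mccc2 and Hibadh) and the highest for Acadsb. It also had the lowest proximal tubule marker sum of the 18 (4319 CPM). Outside the pathway, the 5 genes whose cohort-centred log2 CPM was most like the mean of the 10 enzymes, among 14727 compared over 18 kidneys, were Pigq (r = 0.911), Hgd (0.898), Slc47a1 (0.889), Hectd3 (0.888) and Vdac1 (0.885). Hgd encodes an enzyme of tyrosine breakdown, Slc47a1 an apical exporter of organic cations in the proximal tubule and Vdac1 a channel of the outer mitochondrial membrane. Spearman's rho for the 5 was between 0.779 and 0.864, and without the 2 kidneys farthest from the median (Cxcl12 control 3 and Myc control 4) r was between 0.78 and 0.849.

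**Figure D4:**
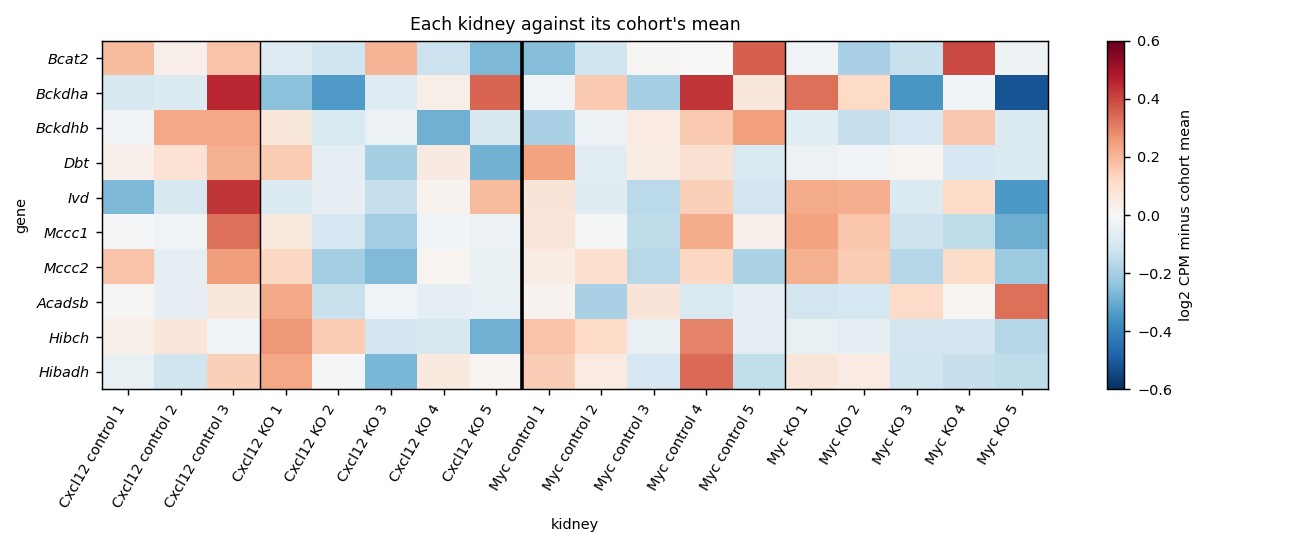
Log2 CPM of each enzyme (rows) in each kidney (columns) minus the mean of its cohort, blue below and red above; the thick line divides the cohorts and thin lines the groups. Cxcl12 control 3 was above its cohort mean for 9 of 10 enzymes and Myc KO 5 below its own for 9 of 10.

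Of the 31 other genes of the pathway, 0 passed the test in either cohort, where 0% (Cxcl12) and 1.65% (Myc) of all genes did, and all 31 were tested. In the Cxcl12 cohort 29 of 31 had a fold change below 0 (median -0.13), all but the mitochondrial carrier Slc25a44 and the transporter Slc7a5. Without Cxcl12 control 3 it was 22 of 31, with a median of -0.044. In the Myc cohort 26 of 31 lay below 0 (median -0.12). The 5 above 0 were Ppm1k, Oxct1, Slc6a19, Slc7a8 and Slc7a5. An unadjusted p under 0.05 was found for 3 of 31 in the Cxcl12 cohort and for 6 of 31 in the Myc cohort, against 13.0% and 21.9% of all genes. All 6 genes of propionyl-CoA handling and all 7 of the electron acceptor and cofactor group were below 0 in both cohorts, with medians of -0.18 and -0.14 for loss of Cxcl12 and of -0.11 and -0.23 for loss of Myc. So were all 5 other genes of the isoleucine and valine branches, with medians of -0.13 (Cxcl12) and -0.15 (Myc).

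Etfb, a subunit of the flavoprotein that takes electrons from Ivd and Acadsb, was at 269, 217 and 257 CPM in Cxcl12 control and 192, 178, 190.0, 208 and 203 CPM in Cxcl12 KO kidneys. The groups did not overlap, as for 4.72% of all genes in this direction, and the log2 fold change was -0.36 (SE 0.096, 95% interval -0.57 to -0.14, adjusted p = 0.173), which DESeq2 called. Exons of Etfb overlap those of Gm45233 on the same strand. Hsd17b10, the dehydrogenase of the isoleucine branch, was at 78.1, 73.6 and 89.7 CPM in Cxcl12 control and 64.7, 68.3, 71.8, 69.2 and 71.1 CPM in Cxcl12 KO kidneys. It did not overlap either, with a log2 fold change of -0.23 (SE 0.084, 95% interval -0.41 to -0.041, adjusted p = 0.302). In the Myc cohort the smallest p-values of the list were those of Btd and Hlcs, biotin enzymes on which carboxylases such as that of Mccc1 depend. The lipoyltransferase gene Lipt1, named after its value was seen, came next. Its log2 fold change was -0.52 (SE 0.18, 95% interval -0.92 to -0.12, adjusted p = 0.140). This rested on 84 to 198 reads per Myc control and 47 to 130 per Myc KO kidney. Exons of Lipt1 share 262 bases with those of Mitd1 on the opposite strand, and counts by strand summed to 126.6% of the count without strand. Btd, which recycles biotin, was at 54.0, 52.6, 42.2, 69.8 and 42.2 CPM in Myc control and 38.1, 44.4, 33.1, 33.0 and 34.0 CPM in Myc KO kidneys. Every KO kidney but KO 2 lay below all controls, and the log2 fold change was -0.51 (SE 0.14, 95% interval -0.82 to -0.21, adjusted p = 0.083). DESeq2 called Btd, and so did edgeR with a term for the kidneys under 5% unmapped reads, which called 6.39% of all genes and Hsd17b10 among them (-0.29 in the fit without that term). Hlcs, which attaches biotin to the carboxylases, was at 14.5 ± 1.40 (SD, n = 5) CPM in Myc control and 12.0 ± 0.813 (SD, n = 5) CPM in Myc KO kidneys, with a log2 fold change of -0.27 (SE 0.095, 95% interval -0.48 to -0.066, adjusted p = 0.136).

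**Figure D5:**
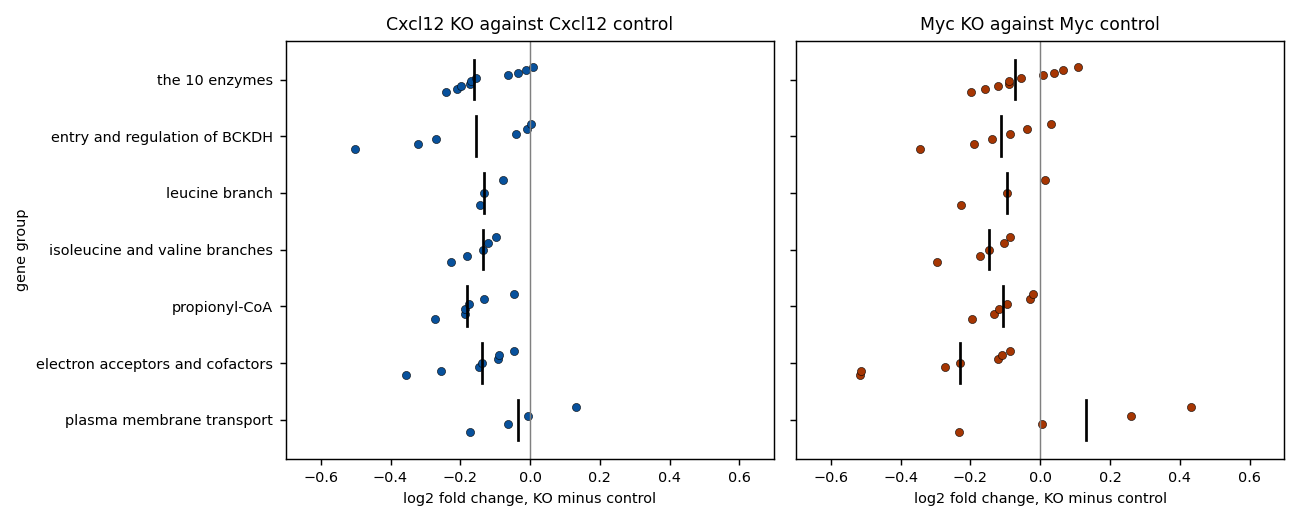
Log2 fold change (horizontal axis, KO minus control) of the 10 enzymes and of the 31 other pathway genes by group (vertical axis) in the Cxcl12 cohort (left) and the Myc cohort (right); points are genes and the black line the median of the group. Below 0 lay 9 of 10 enzymes and 29 of 31 other genes in the Cxcl12 cohort, and 6 of 10 and 26 of 31 in the Myc cohort.

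Levels of cell type markers are given beside these values. In the Cxcl12 cohort the summed level of the 10 proximal tubule markers was 5919 to 7191 CPM in control and 5149 to 5833 CPM in KO kidneys, without overlap, and 10 of 10 markers had a fold change below 0 (median -0.30, 0 called). The sum of the 5 markers of injured tubule was 1788 to 2676 CPM in control and 2886 to 3459 CPM in KO kidneys, also without overlap, with 4 of 5 above 0 and 0 called. In the Myc cohort the proximal tubule sums overlapped, 4894 to 5997 CPM in control and 4319 to 6884 CPM in KO kidneys, with 4 of 10 below 0, and so did those of injured tubule, 2925 to 3671 and 3175 to 3686 CPM. Of the 5 injured tubule markers 2 lay below 0 for Myc, with single log2 fold changes from -1.32 to 0.43 and 0 called. Of the remaining lists, thick limb, distal tubule and collecting duct had 4 of 6 below 0 for Cxcl12 and 1 of 6 for Myc, podocyte 0 of 3 in both, endothelium 0 of 4 in both, leukocyte 2 of 5 and 1 of 5 tested, stroma 2 of 3 and 1 of 3, and fat 3 of 3 and 0 of 3, with 0 called in any. The part of these markers in the values of the enzymes was not tested.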

How the data were processed

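RNA of 18 whole kidneys was sequenced in 4 groups named by the labels. Reads were trimmed with Trimmomatic 0.32 and aligned to GRCm38 with STAR 2.4.0 per the submitters' processing notes, and the authors deposited raw counts per gene, unnormalized, in 3 columns. The column without strand was used because the 2 strand columns held nearly equal shares; the annotation release is not given in the sources used here, and gene IDs were named from GENCODE vM21. Summary lines that name no gene stayed out of library sizes: unmapped (3.69 to 6.48% of reads), multimapping (16.6 to 18.6%), outside genes (4.77 to 7.07%) and ambiguous (2.26 to 2.52%).

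Low counts were filtered (filterByExpr) and each cohort was fitted alone with edgeR 4.0.16 (TMM, glmQLFit and glmQLFTest, R 4.3.3), with Benjamini-Hochberg adjustment over all genes tested at 0.05; the difference of the KO effects was an interaction in 1 fit over 18 kidneys. Log2 CPM used a prior count of 2. The study used voom to transform its counts and ComBat against batch effects before testing gene sets; the batch of each kidney is not given in the sources used here, so ComBat was not applied. Gene-wise tests with limma 3.58.1 voom and DESeq2 1.42.0 were alternatives, beside other scaling, no filter, the strand columns, a replicate block, the mapping split and leaving out each kidney. Exact permutation tests and tables used Python 3.11.15 with scipy 1.17.1. The fit was tested on simulated data. No pair of kidneys within a group agreed within sampling noise (chi-square per degree of freedom 5.77 or more over 33 pairs). The precision of a value rests on 249 to 8362 reads per enzyme and kidney.

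The 10 enzymes, the 31 other pathway genes, the marker lists (proximal tubule, injured tubule, thick limb to collecting duct, podocyte, endothelium, leukocyte, stroma and fat) and the tests were chosen with earlier results of these data known. Named were all 10 enzymes, Bckdk, Ppm1k, Dld, other pathway genes passing the test and the 2 with the smallest p in each cohort, the targeted genes, and the 5 genes most like the mean of the enzymes.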

Additional observations from a re-analysis of the deposited data

Results flagged for a closer look

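In 30 groups of 5 kidneys (10 enzymes in Cxcl12 KO, Myc KO and Myc control; the 3 Cxcl12 controls are too few for this check), the gap of the outermost kidney was compared with the whole range of its group. It exceeded Dixon's 95% critical value (0.71) in 3, where chance alone marks about 1 group in 20. Myc KO 4 stood above the rest of its group for Bcat2, at 48.4 CPM against 32.1 to 36.2 CPM in the other 4 kidneys. The same kidney stood above the others for Bckdhb, at 23.0 CPM against 18.7 to 19.7 CPM. Cxcl12 KO 1 stood above the others for Acadsb, at 137.8 CPM against 107 to 116 CPM. Without Myc KO 4 the log2 fold change of Bcat2 in the Myc cohort was -0.10 in place of 0.0086. No enzyme or other pathway gene passed the test of a difference between the KO effects.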

How the results depend on the processing

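The count of enzymes called stayed at 0 under all 19 alternatives in the Cxcl12 cohort, all 21 in the Myc cohort and all 22 for the difference of the KO effects. The smallest adjusted p an enzyme reached was 0.222 (Cxcl12) and 0.101 (Myc). Over all genes, calls for Cxcl12 ran from 0 of 15154 (limma voom among others) to 149 higher and 204 lower (DESeq2). For Myc they ran from 4 and 4 of 15033 (without kidneys under 5% unmapped) to 485 and 646 of 14936 (DESeq2). For the difference they ran from 0 and 1 of 16256 (without Cxcl12 control 3) to 90 and 234 of 15903 (DESeq2). Settings that called few or no genes at all cannot show that the enzymes were unchanged. Among 190 and 210 single fold changes, 19 and 11 changed sign, all uncalled. Apart from leaving out single kidneys, these were for Cxcl12 Acadsb with the replicate block (0.015), Hibch with the replicate block (0.072) and the counts of 1 strand (column 4; 0.027), and Hibadh with upper-quartile scaling (-0.008), limma voom (-0.0007), count column 4 (-0.0085), the replicate block (-0.012), a term for kidneys under 5% unmapped (-0.067) and without those kidneys (-0.073). For Myc they were Bcat2 with upper-quartile scaling (-0.005), no filter (-0.0007), count column 3 (-0.0385) and without kidneys under 5% unmapped (-0.0017), and Mccc1 without those kidneys (0.018). Leaving out single kidneys gave -0.27 to 0.045 (Bckdha), -0.20 to 0.16 (Ivd), -0.079 to 0.014 (Acadsb), -0.11 to 0.025 (Hibch) and -0.053 to 0.084 (Hibadh) in the Cxcl12 cohort, and -0.10 to 0.11 (Bcat2), -0.13 to 0.0062 (Mccc1) and -0.0097 to 0.096 (Mccc2) in the Myc cohort. A further 44 and 48 fold changes kept their sign but moved by over 1.5 times. Among those over 0.1 in size and not given elsewhere, Cxcl12 had Bcat2 with the replicate block (-0.13), Bckdhb with count column 3 (-0.14) and Dbt without kidneys under 5% unmapped (-0.26). Myc had Bckdha with count column 4 (-0.088), without kidneys under 5% unmapped (-0.068) and at -0.27 to -0.060 without single kidneys, Acadsb without kidneys under 5% unmapped (0.057) and without KO 5 (0.028), and Hibadh without control 4 (-0.045). Without kidneys under 5% unmapped, other Myc values moved from 0.065 to 0.21 (Ivd), from 0.040 to 0.15 (Mccc2) and from -0.091 to -0.022 (Dbt). Leaving out single kidneys, the median of the enzymes ran from -0.19 to -0.055 in the Cxcl12 cohort, the upper end without control 3, and from -0.093 to -0.025 in the Myc cohort, and without the kidneys under 5% unmapped it was -0.20 and -0.012. Of the 31 other pathway genes, DESeq2 called 1 in each cohort (Etfb, Btd), where it called 2.33% (Cxcl12) and 7.57% (Myc) of all genes. The mapping term called 2 for Myc (Hsd17b10, Btd), where it called 6.39% of all genes. Leaving out single Myc kidneys called 0 to 1 (Btd, without control 3). In that fit 433 genes were called higher and 444 lower of the 15108 tested. The cause of these changes was not tested. The labels do not say whether replicate numbers pair the kidneys. Same-numbered deviations correlated by -0.032 to 0.134 over 3 Cxcl12 pairs, against -0.131 to 0.191 between other numbers. Over 5 Myc pairs they correlated by -0.211 to 0.402, against -0.522 to 0.479. So few pairs cannot decide whether the kidneys were paired. The replicate block called 0 enzymes and 0 other pathway genes in both cohorts. Of all genes it called 0 of 15154 for Cxcl12, and 7 higher and 11 lower of 14936 for Myc. With it the medians over the enzymes were -0.14 (Cxcl12) and -0.074 (Myc). The union of exons as the length, chosen after seeing the data, moved 32 of 40 levels per kilobase by more than their SD, and a prior count of 0.5 moved no difference of means by more than the spread. With 3 Cxcl12 controls the 95% intervals reached down to -0.53 (Bckdha), and changes within the interval of an enzyme are not excluded by these data.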

Other observations

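The 4 plasma membrane transporters of the list, named here after their values were seen, lay on both sides of 0 in each cohort. Slc7a8, a basolateral exchanger of neutral amino acids, was at 100.4, 71.2, 146, 76.1 and 132 CPM in Myc control and 132, 129.5, 168, 155 and 125 CPM in Myc KO kidneys. All 5 KO kidneys lay above the control mean while the groups overlapped, with a log2 fold change of 0.43 (SE 0.18, 95% interval 0.032 to 0.83, adjusted p = 0.203). In the Cxcl12 cohort its log2 fold change was -0.17 (SE 0.16, 95% interval -0.53 to 0.18, adjusted p = 0.672), and the difference between the cohorts was 0.60 (95% interval 0.029 to 1.17, adjusted p = 0.407). Slc6a19, the apical transporter of neutral amino acids in the proximal tubule, had log2 fold changes of 0.26 in the Myc (adjusted p = 0.280) and -0.064 in the Cxcl12 cohort (adjusted p = 0.908). The other 2 of the 4 transporters were Slc3a2, the heavy chain of these exchangers, at -0.23 (SE 0.10, 95% interval -0.45 to -0.016, adjusted p = 0.205) for loss of Myc and -0.0057 (adjusted p = 0.991) for loss of Cxcl12, and the light chain Slc7a5, in the same order at 0.0053 (adjusted p = 0.988) and 0.13 (adjusted p = 0.696) on the log2 scale. Bcat1, the cytosolic aminotransferase, varied more between kidneys than Bcat2 did, with coefficients of variation of 40.2% in Cxcl12 KO and 46.6% in Myc KO kidneys against 12.6% and 17.4%. It was at 22.4 ± 2.66 (SD, n = 3) and 15.7 ± 6.32 (SD, n = 5) CPM in Cxcl12 control and Cxcl12 KO kidneys. The groups overlapped, KO 1 lying above every control at 25.6 CPM. The edgeR log2 fold change was -0.50 (SE 0.26, 95% interval -1.08 to 0.073, adjusted p = 0.444).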
